A study of Mus musculus with 24 samples.

Results

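Skeletal muscle secretes peptides and cytokines, often called myokines, that act on the fibre itself, on nearby vessels and nerves, and on distant organs. The 7 genes described here encode such factors: Ostn (the peptide musclin), Apln (apelin), Il15 (interleukin-15), Fndc5 (the precursor of irisin), Metrnl (meteorin-like), Vegfa (vascular endothelial growth factor A) and Bdnf (brain-derived neurotrophic factor). They were taken by name from the 43346 rows of the count table, and Ostn had been chosen by its measured fall in the tumour-bearing mice of these same libraries. Its tumour difference is therefore a description without a test, and the other 6 were tested.

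The libraries came from gastrocnemius, the large muscle of the calf, of C57BL6 mice injected at 7 weeks of age and studied after 3 weeks. LLC1 is a lung carcinoma cell line from a mouse of that strain, given here under the skin, and control mice had PBS as the vehicle. There were 6 libraries in each of 4 groups: female vehicle, female LLC1, male vehicle and male LLC1. Every group had a separate sequencing lane, and the effects of group and of lane cannot be told apart. The labels do not say that the libraries of a group are separate mice, so p-values measure only the spread between these libraries, which may be technical. Libraries held 26.2 to 47.4 mega-reads counted in genes. The 9 markers of the myofibre, the muscle cell itself, made up 12.6% to 19.8% of the reads, and none of the 9 was at 0 in any group. In whole muscle, fewer cells of a type and less RNA per cell cannot be told apart.

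Musclin resembles the natriuretic peptides and binds their clearance receptor, NPR3, which removes those peptides from the circulation. In muscle its gene is known to respond to insulin and to be repressed by FoxO1. Apelin, which signals through the receptor APJ (Aplnr), and irisin are known as factors released with exercise, and VEGF-A sustains the capillary bed around the fibres. Interleukin-15 is a growth factor of lymphocytes that is abundant in muscle, meteorin-like is a cytokine of muscle and fat, and BDNF is a neurotrophin that binds TrkB.

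Among the tested genes, Apln and Fndc5 were both lower with LLC1 in males and over both sexes, so the 250 bases before their annotated starts are shown (RefSeq, GRCm38.p6, read 5′ to 3′ on the gene's strand). RefSeq windows were matched for 5 of the 7 genes; Ostn and Il15 were not matched. The Apln window is chrX:48034854-48035103 on the minus strand and the Fndc5 window is chr4:129136749-129136998 on the plus strand. Capitals mark a match to one of 4 short motifs searched on both strands: the HIF core ACGTG, the cyclic AMP half-site TGACG, the FoxO core GTAAACA and the ERR half-site AAGGTCA.
Apln: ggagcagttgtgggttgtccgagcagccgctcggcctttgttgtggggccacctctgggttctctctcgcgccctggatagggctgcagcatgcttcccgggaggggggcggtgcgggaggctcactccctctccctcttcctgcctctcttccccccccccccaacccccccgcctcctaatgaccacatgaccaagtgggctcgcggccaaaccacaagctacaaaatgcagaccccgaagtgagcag
Fndc5: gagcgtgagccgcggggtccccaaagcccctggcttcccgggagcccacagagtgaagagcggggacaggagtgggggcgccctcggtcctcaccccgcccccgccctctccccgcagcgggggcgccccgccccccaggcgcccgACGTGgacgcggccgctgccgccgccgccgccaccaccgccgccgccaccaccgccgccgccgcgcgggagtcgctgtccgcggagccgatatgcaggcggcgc
The Fndc5 window, with 80.8% G and C, held 1 ACGTG, 104 bases before the start on the gene's own strand, and the Apln window held no match to any of the 4. ACGTG was found in 16.6% of 32851 promoter windows of the same length, TGACG in 17.8%, GTAAACA in 3.17% and AAGGTCA in 4.08%. ACGTG and TGACG can overlap, as TGACGTG. Such an overlap lay on the other strand 211 bases before a second start of Vegfa and 37 bases before 1 of the 7 starts of Bdnf. ACGTG alone also lay on the other strand 170 and 77 bases before the most upstream start of Bdnf. The windows of the upstream start of Vegfa and of Metrnl held none of the 4. A match describes letters only.

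All 7 genes passed the filter on low counts. The table gives them as Ostn (ENSMUSG00000052276, chr16:27307489-27351212), Apln (ENSMUSG00000037010, chrX:48025146-48034853), Il15 (ENSMUSG00000031712, chr8:82331637-82403222), Fndc5 (ENSMUSG00000001334, chr4:129136999-129144593), Metrnl (ENSMUSG00000039208, chr11:121701544-121716306), Vegfa (ENSMUSG00000023951, chr17:46016993-46032377) and Bdnf (ENSMUSG00000048482, chr2:109674700-109727007), all protein-coding, on mm10. The library kit does not keep strand, and a gene on the other strand overlaps 12.9% of the exon length of Ostn and 14.4% of that of Bdnf. Reads of those partners cannot be told apart from reads of Ostn and Bdnf, while the other 5 genes had no such overlap.

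Per length of transcript, Vegfa and Fndc5 were the most abundant of the 7 in every group by mean, followed by Ostn. In female vehicle muscle, mean RPKM (CPM, defined below, divided by exon length in kilobases) was 29.7 ± 3.29 (SD, n = 6) for Vegfa, 23.7 ± 2.80 for Fndc5 and 19.3 ± 6.81 for Ostn. The ranges of these neighbours overlapped there, so their order was not set apart. Il15 (4.40 ± 0.728) and Metrnl (3.73 ± 0.615) came next and overlapped each other, and Apln (0.395 ± 0.215) and Bdnf (0.105 ± 0.0499) were lowest, with ranges that did not overlap. In the other 3 groups Ostn lay below Fndc5 without overlap. In male LLC1 muscle Ostn was at 3.94 ± 2.06 RPKM, a range that overlapped that of Metrnl (2.44 ± 0.609). Mean Bdnf was above mean Apln in both LLC1 groups and below it in both vehicle groups. The ranges of that pair overlapped in the LLC1 groups (0.193 ± 0.0589 against 0.182 ± 0.0845 RPKM in females) and were apart in the vehicle groups.

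**Figure D1:**
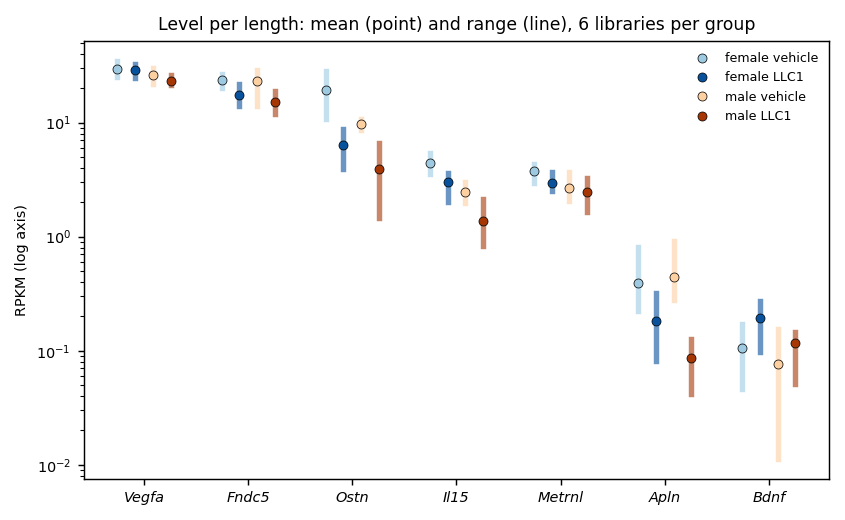
Level per length of the 7 genes, in RPKM on a log axis; points are means of 6 libraries and lines run from the lowest to the highest library of each group. Vegfa and Fndc5 stand highest, Apln and Bdnf lowest, and Ostn spans from 19.3 RPKM in female vehicle to 3.94 RPKM in male LLC1 muscle.

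Levels below are in CPM (read counts relative to the scaled library size), and a difference passed when its adjusted p was below 0.05 in edgeR's quasi-likelihood test over 17773 genes. Of the 6 tested factors, Apln fell with LLC1 in females, where 9.92% of all genes passed (4.97% higher, 4.95% lower). Il15, Fndc5 and Apln fell in males, where 36.3% of all genes passed (19.5% higher, 16.8% lower). Over both sexes these 3 fell and Bdnf rose, beside 41.5% of all genes (20.2% lower, 21.2% higher). The count in females was 1 of 6 and ranged from 0 to 3 across the alternatives, so little is read from it. Counts of 3 of 6 in males and 4 of 6 over both sexes stood beside these high backgrounds and are not read as particular to secreted factors. The median difference of all genes was -0.01 (log2) in females and 0.01 in males.

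**Figure D2:**
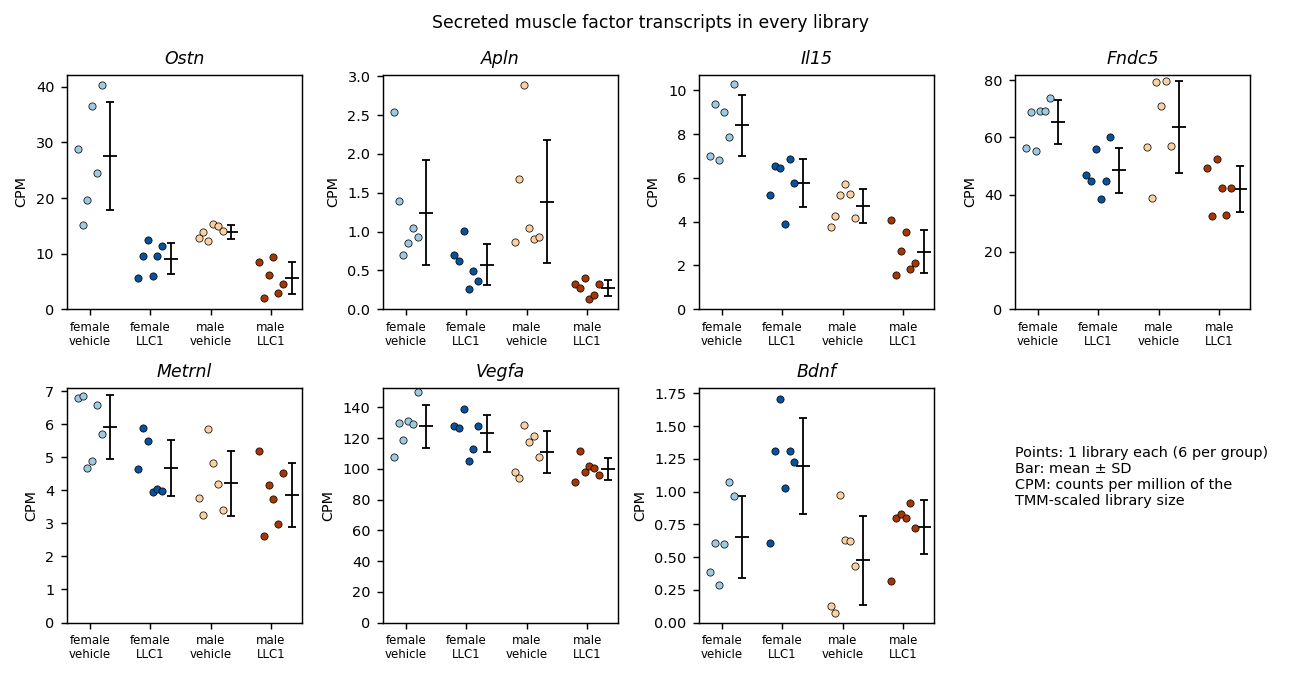
CPM of each of the 7 genes in all 24 libraries, with the mean ± SD of each group of 6. The LLC1 libraries lie below all vehicle libraries of their sex for Ostn in both sexes and for Apln in males.

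Ostn was low in every tumour-bearing library. In females it ran from 15.2 to 40.3 CPM with vehicle (median 26.7) and from 5.61 to 12.5 CPM with LLC1 (median 9.49). In males it ran from 12.3 to 15.3 CPM with vehicle (median 14.0) and from 2.06 to 9.35 CPM with LLC1 (median 5.39). All 6 LLC1 libraries of each sex were below all 6 vehicle libraries, which was so of 2.5% of all genes in females and 5.35% in males. Genes whose groups did not overlap with LLC1 higher made up 4.05% and 4.96%, and either direction 6.55% and 10.3%. Since this contrast chose the gene, nothing is read from it. The fitted log2 difference was -1.60 ± 0.29 (SE) in females, to 0.330 of the vehicle level, and -1.32 ± 0.30 in males, to 0.400. Reads behind these values numbered 75 to 1465 in a library.

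The spread of Ostn differed among the groups. Its coefficient of variation was 8.60% in male vehicle muscle and 52.3% in male LLC1 muscle, where library 1-5 (libraries are named by the number in their label) was at 2.06 CPM and library 2-2 at 9.35 CPM. In females the coefficient was 35.2% with vehicle and 30.7% with LLC1. Male vehicle muscle held less Ostn than female vehicle muscle, with 5 of 6 male libraries below all female ones. Means were 13.9 ± 1.20 (SD, n = 6) and 27.5 ± 9.69 CPM, a log2 difference, male minus female, of -0.98 ± 0.28 (SE). With LLC1 it was -0.71 ± 0.30. The male tumour difference of Ostn minus the female one was 0.28 ± 0.41 (log2, SE), given as a description.

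The receptors that bind or relay natriuretic peptides were measured beside Ostn. Npr3, the receptor that musclin binds, ran from 6.78 to 22.3 CPM in female vehicle (median 13.1) and from 15.5 to 24.9 in female LLC1 muscle (median 20.2). In males it ran from 4.14 to 10.9 with vehicle (median 8.25) and from 8.46 to 17.1 with LLC1 (median 12.0), and the groups overlapped in both sexes. Over both sexes Npr3 rose by 0.62 ± 0.19 (log2, SE; adjusted p = 0.0112). In neither sex alone did it pass (0.58 ± 0.26, adjusted p = 0.160 in females; 0.66 ± 0.27, adjusted p = 0.0588 in males).

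Of the 8 tested genes of that pathway, 4 passed in males, where 36.3% of all genes did, so nothing is read from the count. Furin, a protease that cleaves precursor peptides, rose by 0.55 ± 0.11 (adjusted p = 7.23e-04), and 3 fell. These were Npr2, the receptor for C-type natriuretic peptide (-0.26 ± 0.06, adjusted p = 0.00146), Prkg1, a cyclic GMP-dependent kinase (-0.82 ± 0.18, adjusted p = 0.00128), and Pde5a, a cyclic GMP phosphodiesterase (-0.46 ± 0.14, adjusted p = 0.0155). With library sizes taken from total counts alone, Pde5a did not pass. The count of 1 that rose was 2 without female vehicle 1-3 or 2-2, male LLC1 1-4, 2-2 or 2-4, or male vehicle 2-4. In females 0 of the 8 passed by edgeR, by DESeq2 or by limma-voom, and 2 had an unadjusted p below 0.05. Npr1, Nppc and Corin did not pass in either sex, and Nppa and Nppb, the cardiac peptides, were below the filter with at most 10 reads in a library. The median of the 8 was -0.0045 in females and -0.11 in males (log2).

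Regulators on the insulin and FoxO route were higher in part. In males 5 of 8 rose and 0 fell, beside 19.5% and 16.8% of all genes: Foxo1 by 1.52 ± 0.40 (adjusted p = 0.00538), Foxo3 by 1.04 ± 0.17 (adjusted p = 1.29e-04), the kinase gene Akt1 by 0.99 ± 0.20 (adjusted p = 6.98e-04), Irs2 by 0.85 ± 0.15 (adjusted p = 2.02e-04) and the insulin receptor Insr by 0.45 ± 0.10 (adjusted p = 0.00108). In females Akt1 (0.61 ± 0.20, adjusted p = 0.0499) and Insr (0.31 ± 0.10, adjusted p = 0.0424) rose, while Foxo1 stood at 0.79 ± 0.39 (adjusted p = 0.203). Both female calls were fragile: that of Akt1 was lost on leaving out 17 of the 24 libraries singly (adjusted p 0.0562 to 0.103), and that of Insr on leaving out 10 (0.0503 to 0.0933). The female count of 2, beside 4.97% of all genes, ranged from 0 to 4 when 1 library was left out, with 4 without male LLC1 1-4. It was 0 without female LLC1 1-4, 2-3 or 2-4, female vehicle 2-1 or 2-3, or male vehicle 1-1 or 2-4. It was 1 without female LLC1 1-5 or 2-1, female vehicle 1-3, 1-4 or 2-2, male LLC1 2-4 or 2-5, or male vehicle 1-2, 1-4 or 2-5. The male count was 5 to 6. The list's median was 0.29 in females and 0.65 in males, where that of all genes was near 0. The part of these genes in the level of Ostn was not tested.

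Apln was scarce, with 4 to 118 reads in a library, and fell with LLC1. In males it ran from 0.870 to 2.88 CPM with vehicle (median 0.984) and from 0.133 to 0.398 with LLC1 (median 0.298). In females it ran from 0.695 to 2.54 CPM with vehicle (median 0.993) and from 0.257 to 1.00 with LLC1 (median 0.556). The male groups did not overlap, as for 5.35% of all genes in that direction, whereas the female groups did. The log2 difference was -2.33 ± 0.39 in males (SE; adjusted p = 1.62e-04), to 0.199 of the vehicle level, and -1.14 ± 0.35 in females (adjusted p = 0.0423), to 0.455.

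The female difference of Apln stood near the threshold. It did not pass in 13 of 33 alternatives (adjusted p 0.0224 to 0.541 over all), among them the leaving out of any 1 of 9 libraries. Without female vehicle 1-1, the highest of its group at 2.54 CPM, it was -0.77 (adjusted p = 0.144). Without female LLC1 1-4, 1-5, 2-3, 2-4 or 2-5, adjusted p was 0.0597, 0.0691, 0.117, 0.0741 and 0.0713. Without female vehicle 1-3, 2-1 or 2-2 it was 0.0761, 0.0517 and 0.0554. The male difference passed in all 33. The male difference minus the female one was -1.20 ± 0.53 (unadjusted p = 0.0344, adjusted p = 0.375), so a larger fall in males was not shown.

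Aplnr, the apelin receptor, fell in males by 0.94 on the log2 scale, with an SE of 0.31 (adjusted p = 0.0222), and was at -0.13 ± 0.31 in females (adjusted p = 0.835). Male vehicle libraries ran from 5.67 to 22.9 CPM and male LLC1 libraries from 3.37 to 7.56 CPM, so the groups overlapped. The male fall was lost without male LLC1 1-5, 2-1 or 2-4 or male vehicle 1-3, at adjusted p from 0.0507 to 0.110. Endothelial cells are known to express Aplnr. Of 10 of their markers, 4 rose and 2 fell in males, beside 19.5% and 16.8% of all genes. In females 3 rose, beside 4.97%. The 10 summed to 304 to 492 CPM in male vehicle and 366 to 462 CPM in male LLC1 libraries. The part of that sum in the Aplnr values was not tested.

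**Figure D3:**
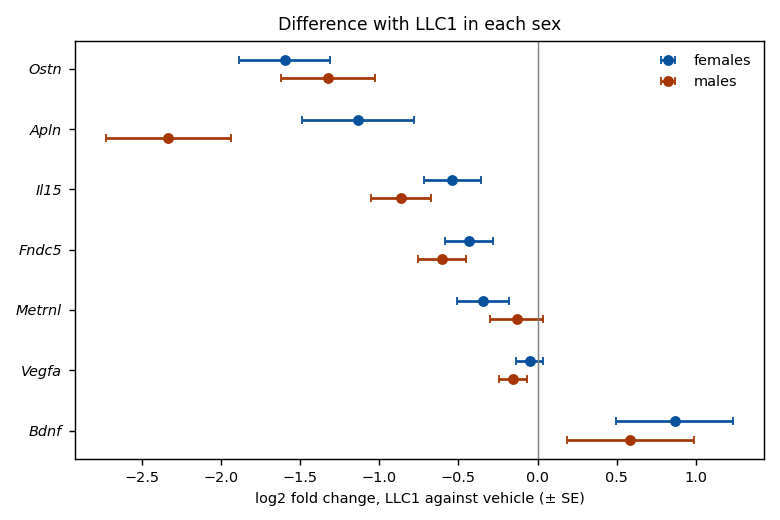
Fitted log2 fold change with LLC1 against vehicle (± SE) in females and males for the 7 genes, 6 libraries per group. All genes but Bdnf have fitted values below 0 in both sexes, from -2.33 for Apln in males to -0.05 for Vegfa in females, and Bdnf lies above 0.

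Il15 fell with LLC1 in males and was lower in males than in females. In female muscle it ran from 6.81 to 10.3 CPM with vehicle (median 8.44) and from 3.87 to 6.84 with LLC1 (median 6.09). In male muscle it ran from 3.74 to 5.73 CPM with vehicle (median 4.74) and from 1.57 to 4.07 with LLC1 (median 2.39). In each sex 5 of the 6 LLC1 libraries were below all vehicle libraries and the sixth overlapped them. The log2 difference was -0.86 ± 0.19 in males (SE; adjusted p = 0.00144) and -0.54 ± 0.18 in females (adjusted p = 0.0564), and over both sexes -0.70 ± 0.13 (adjusted p = 2.23e-04).

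The female difference of Il15 missed the threshold narrowly. It passed with DESeq2 (adjusted p = 0.0337), with limma-voom (0.0313), with the female libraries fitted alone (0.0217) and without male LLC1 1-4, 1-5 or 2-2 (0.0322, 0.0347 and 0.0473), in a range of 0.0217 to 0.170 over the alternatives. The male and female differences were -0.32 ± 0.26 apart (adjusted p = 0.613). Il15ra, the chain that presents interleukin-15 to other cells, did not pass: it was at 0.01 ± 0.11 in females (95% interval -0.23 to 0.24) and 0.05 ± 0.11 in males (-0.19 to 0.28). Il2rg, the shared gamma chain of leucocytes, rose in males by 1.20 ± 0.35 (adjusted p = 0.00974). Its male LLC1 libraries ran from 1.43 to 7.85 CPM and male vehicle libraries from 0.905 to 2.18.

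Markers of blood cells moved in the same libraries, where 4.97% of all genes rose in females and 19.5% in males. All 12 tested of 13 neutrophil markers rose in both sexes, and their summed level went from 3.44 to 8.77 CPM in male vehicle libraries to 70.1 to 191 CPM with LLC1. In females it went from 4.43 to 9.38 to 66.7 to 186 CPM. In vehicle males 2 of the 13 were at 0. All 8 erythroid markers rose as well, with a sum of up to 20117 CPM in 1 female LLC1 library against 1033 CPM at most in female vehicle libraries. Only 2 of 13 T and NK cell markers passed the filter, with sums of 0.529 to 17.1 CPM over all libraries, and 1 of them rose in males. The part of these cells in the Il15 and Il2rg values was not tested.

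Fndc5 fell with LLC1 in males, where genes of the PGC-1 coactivators also fell. In males it ran from 38.7 to 79.6 CPM with vehicle (median 63.9) and from 32.7 to 52.5 with LLC1 (median 42.4). In females it ran from 55.3 to 73.9 CPM with vehicle (median 69.1) and from 38.6 to 60.1 with LLC1 (median 45.8). Groups overlapped in both sexes: 1 male vehicle library, 1-2, lay at 38.7 CPM among the LLC1 values, and 2 female LLC1 libraries lay within the vehicle range. The log2 difference was -0.60 ± 0.15 in males (SE; adjusted p = 0.00374) and -0.43 ± 0.15 in females (adjusted p = 0.0671). Over both sexes it was -0.52 ± 0.11 (adjusted p = 5.61e-04).

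The female difference of Fndc5 passed with DESeq2 (adjusted p = 0.0465), with females alone (0.0170), without female LLC1 2-5 (0.0364) and without male vehicle 1-2 (0.0350), in a range of 0.0170 to 0.187. In males 4 of the 5 partner genes fell and 1 rose, beside 16.8% and 19.5% of all genes. Ppargc1a, which encodes PGC-1 alpha, fell by 0.35 on the log2 scale with an SE of 0.12 (adjusted p = 0.0238). Its relative Ppargc1b was at -1.14 ± 0.20 (adjusted p = 2.08e-04), and the nuclear receptor Esrra at -0.60 ± 0.15 (adjusted p = 0.00319). Of the integrin chains reported to bind irisin, Itgav fell (-0.32 ± 0.07, adjusted p = 0.00120) and Itgb5 rose (0.31 ± 0.09, adjusted p = 0.00685). In females 0 of the 5 passed by edgeR, 4 had an unadjusted p below 0.05 and DESeq2 passed 1. By edgeR 2 fell without female LLC1 2-1, and 1 without female LLC1 2-5 or male LLC1 1-4, 1-5 or 2-2. The male fall of Ppargc1a was lost without male LLC1 1-5 or 2-5 or male vehicle 2-4 (adjusted p 0.0525 to 0.0598) and with total counts alone. Of 9 myofibre markers 2 fell in males and 1 in females, beside 16.8% and 4.95% of all genes. Their sums were 125662 to 185116 CPM in male LLC1 and 156305 to 198196 CPM in male vehicle libraries. The part of the partner genes and of the myofibre in the level of Fndc5 was not tested.

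Metrnl showed no difference that passed. Its medians were 6.13 CPM in female vehicle (4.67 to 6.86), 4.35 in female LLC1 (3.95 to 5.89), 3.98 in male vehicle (3.26 to 5.86) and 3.95 in male LLC1 muscle (2.62 to 5.19). All pairs of these groups overlapped. The log2 difference with LLC1 was -0.34 ± 0.16 in females (95% interval -0.68 to -0.01, adjusted p = 0.185) and -0.13 ± 0.17 in males (-0.48 to 0.21, adjusted p = 0.567). Over both sexes it was -0.24 ± 0.12 (adjusted p = 0.105) and passed only without male LLC1 1-4 (adjusted p = 0.0451, range 0.0451 to 0.538).

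Its relative Metrn, the neurotrophic factor meteorin, fell in both sexes. Metrn ran from 12.6 to 19.7 CPM in female vehicle and 5.43 to 13.8 in female LLC1 muscle, and from 14.9 to 17.3 in male vehicle and 3.94 to 11.9 in male LLC1 muscle. The male groups did not overlap, as for 5.35% of all genes in that direction. The log2 difference was -0.997 ± 0.211 in females (adjusted p = 0.00399) and -0.96 ± 0.21 in males (adjusted p = 0.00155). Kit, reported as a receptor for meteorin-like, did not pass in either sex (-0.07 ± 0.23 and 0.13 ± 0.23). Kitl, the ligand of KIT, fell in males (-0.58 ± 0.12, adjusted p = 0.00115).

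Vegfa, per length the most abundant of the 7, showed no tumour difference that passed. In females it ran from 108 to 149.8 CPM with vehicle (median 129) and from 105 to 139 with LLC1 (median 127). In males it ran from 94.0 to 128 CPM with vehicle (median 113) and from 91.1 to 111 with LLC1 (median 99.2). All 4 groups overlapped with their counterparts. The log2 difference was -0.05 ± 0.09 in females (95% interval -0.23 to 0.13, adjusted p = 0.762) and -0.15 ± 0.09 in males (-0.33 to 0.02, adjusted p = 0.166). The male interval leaves out a fall of the size that Il15 or Apln showed in males. A smaller difference, within the bounds of these intervals, is not excluded.

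The other VEGF genes did not move as one. Kdr, the main signalling receptor of VEGF-A, fell in males (-0.62 ± 0.14, adjusted p = 0.00136). Its libraries ran from 29.9 to 52.0 CPM with vehicle and from 21.7 to 26.1 CPM with LLC1. They did not overlap, as for 5.35% of all genes in that direction. Flt1, a receptor that also acts as a decoy, rose in females (0.45 ± 0.14, adjusted p = 0.0352) and was at 0.12 ± 0.14 in males. Figf, which encodes VEGF-D, rose in males by 2.06 ± 0.35 (adjusted p = 2.05e-04), with libraries from 5.16 to 36.8 CPM against 3.59 to 5.25 with vehicle, so the male groups overlapped. In females Figf was at 0.50 ± 0.35 (adjusted p = 0.387). Its LLC1 libraries (5.14 to 7.41 CPM) still lay above all vehicle libraries (3.71 to 5.10 CPM), as for 4.05% of all genes. Vegfb (-0.29 ± 0.09, adjusted p = 0.0195) and Vegfc (-0.56 ± 0.21, adjusted p = 0.0427) fell in males.

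Several of these calls, of which those of Flt1 and Vegfc stood nearest the threshold, were lost on leaving out 1 library. That of Flt1 in females was lost without female LLC1 1-4, 2-1 or 2-3 or female vehicle 2-1, 2-2 or 2-3 (adjusted p 0.0602 to 0.0752). That of Vegfb was lost without male LLC1 1-5 or male vehicle 1-4 (adjusted p = 0.0580 and 0.0698). That of Vegfc was lost without male LLC1 1-5, 2-1, 2-4 or 2-5 or male vehicle 1-2, 1-3, 2-4 or 2-5 (0.0524 to 0.104). With total counts alone Vegfb and Vegfc did not pass. Of the 9 genes, 1 rose in females, and 1 rose and 3 fell in males, with medians of 0.27 and -0.10. These counts stood beside 4.97% of all genes higher in females, and 19.5% higher and 16.8% lower in males. The female count was 3 without female LLC1 2-5 and 0 without any of the 6 libraries named for Flt1, and the 3 that fell in males became 1 without male LLC1 1-5. The tumour difference in males minus that in females passed for 0 of the 9 by edgeR, DESeq2 or limma-voom, and 1 had an unadjusted p below 0.05.

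Targets of HIF, the hypoxia-inducible factor for which Vegfa is a textbook target, were measured beside it. Of 18 tested, 4 rose and 0 fell in females, beside 4.97% and 4.95% of all genes, and 8 rose and 4 fell in males, beside 19.5% and 16.8%. The medians were 0.25 and 0.31. By size over both sexes the first 6 were Egln3, an oxygen-sensing hydroxylase (1.40 ± 0.26, adjusted p = 2.50e-04), Ddit4 (1.28 ± 0.40, adjusted p = 0.0135), Bnip3, a mitophagy receptor (0.99 ± 0.14, adjusted p = 9.89e-06), Adm, which encodes adrenomedullin (0.92 ± 0.19, adjusted p = 6.67e-04), Pfkfb3 (0.70 ± 0.28, adjusted p = 0.0483) and Car9 (-0.57 ± 0.21, adjusted p = 0.0294). The calls of Pfkfb3 and Car9 were lost without any of 13 and of 8 single libraries (adjusted p 0.0530 to 0.126 and 0.0501 to 0.0593). Leaving out 1 library moved the female count of 4 that rose between 2 and 5, with 2 left without female LLC1 1-4 or 2-4 or female vehicle 1-3 or 2-1, and the 0 that fell became 2 without female LLC1 2-5 and 1 without male LLC1 1-5 or 2-2. In males 7 to 8 rose and 3 to 7 fell, with 7 falling without male LLC1 2-2. Over both sexes Vegfa itself was at -0.10 ± 0.06.

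Bdnf was the scarcest of the 7 in vehicle muscle, with 2 to 47 reads in a vehicle library and 10 to 63 in an LLC1 library, and it rose over both sexes. In females it ran from 0.290 to 1.07 CPM with vehicle (median 0.601) and from 0.603 to 1.71 with LLC1 (median 1.27). In males it ran from 0.0701 to 0.971 CPM with vehicle (median 0.528) and from 0.320 to 0.911 with LLC1 (median 0.797). The groups overlapped in both sexes. The log2 difference over both sexes was 0.73 ± 0.27 (SE; adjusted p = 0.0350), with 0.87 ± 0.37 in females (adjusted p = 0.135) and 0.59 ± 0.40 in males (adjusted p = 0.261).

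The call of Bdnf was lost in 10 of 32 alternatives (adjusted p 0.0115 to 0.255), of which 2 took a title number as a block and are given with the processing alternatives. It was also lost without female LLC1 2-1 (adjusted p = 0.0608), female vehicle 1-1 (0.0553) or 1-4 (0.0580), male LLC1 1-5 (0.0512) or 2-4 (0.0603), or male vehicle 1-1 (0.0569) or 2-5 (0.0511), and without the filter on low counts (0.0524). Ntrk2, which encodes the BDNF receptor TrkB, did not pass (-0.06 ± 0.24 in females; -0.52 ± 0.25, adjusted p = 0.102 in males). Other neurotrophin ligands differed from it. Ntf3, which encodes neurotrophin-3, fell in males by 1.03 with an SE of 0.21 (adjusted p = 7.86e-04) and was at -0.66 ± 0.20 in females (adjusted p = 0.0408), a call lost without female LLC1 1-4, 2-1, 2-3 or 2-4 or female vehicle 1-1, 1-3, 1-4, 2-1 or 2-2 (0.0551 to 0.0967). Ntf5, which encodes neurotrophin-4, fell in males (-1.42 ± 0.27, adjusted p = 4.46e-04). Ngfr, the low-affinity receptor p75, rose in males (1.27 ± 0.34, adjusted p = 0.00578).

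Of 9 Schwann cell markers, cells that are a source of neurotrophins and of Ngfr, 0 passed with LLC1 in either sex by edgeR, DESeq2 or limma-voom, and 0 had an unadjusted p below 0.05. Their summed level was 134 to 382 CPM in female vehicle and 178 to 309 CPM in female LLC1 libraries. In males it was 84.8 to 151 and 89.5 to 171 CPM. Of 9 satellite cell markers, 2 fell in females and 2 rose and 2 fell in males. Their sums were 77.9 to 93.2 CPM in female LLC1 and 78.2 to 89.1 in female vehicle libraries. In males they were 61.3 to 97.0 CPM with LLC1 and 65.5 to 79.8 CPM with vehicle. Of 10 markers of fibro-adipogenic progenitors, 3 fell and 1 rose in females and 8 fell and 1 rose in males. Their sum was 1532 to 1926 CPM in male LLC1 against 2008 to 2707 in male vehicle libraries. In females it was 1212 to 2169 CPM with LLC1 against 1784 to 3063 CPM with vehicle, and these ranges overlapped. These counts stood beside 4.95% of all genes lower and 4.97% higher in females, and 16.8% and 19.5% in males. The part of these cells in the neurotrophin values was not tested.

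**Figure D4:**
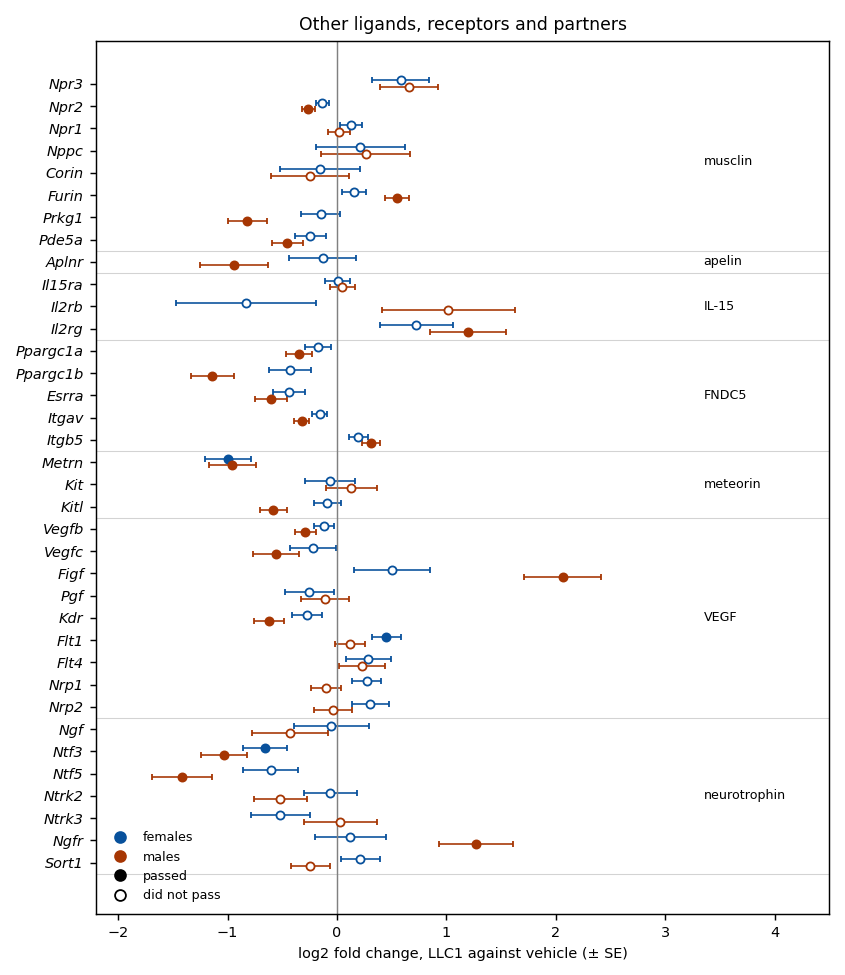
Fitted log2 fold change with LLC1 (± SE) for the other ligands, receptors and partners of the 7 factors, in females and males; filled points passed at an adjusted p below 0.05 and open points did not. Metrn and Ntf3 are filled below 0 in both sexes, and Figf is the highest point, at 2.06 in males.

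Between the sexes, Il15 was the only one of the 6 tested factors that passed with vehicle. It was lower in male vehicle than in female vehicle muscle by 0.82 on the log2 scale (-0.82 ± 0.18, SE; adjusted p = 0.00708), and the 6 male libraries lay below all 6 female ones, as for 1.82% of all genes in that direction, 2.49% in the other and 4.31% in either. Of all genes 6.23% passed (3.28% higher and 2.95% lower in males), and of the 6 factors 1 did. With LLC1, Il15 (-1.15 ± 0.19, adjusted p = 4.27e-04) and Vegfa (-0.30 ± 0.09, adjusted p = 0.0197) were lower in males, 2 of 6 beside 15.7% of all genes (9.62% higher, 6.07% lower). For both genes 5 of the 6 male LLC1 libraries lay below all female ones. The groups did not overlap for 3.51% of all genes, 1.87% higher and 1.64% lower in males. The call of Vegfa was lost without female LLC1 2-1 (adjusted p = 0.0512, range 0.00902 to 0.0512).

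Metrnl (-0.49 ± 0.17, adjusted p = 0.0803) did not pass between the sexes with vehicle, except without male vehicle 1-3 (adjusted p = 0.0274, range 0.0274 to 0.405). Apln did not pass with LLC1 (-1.06 ± 0.42, adjusted p = 0.0827), though it did with DESeq2 (0.0434) and without female vehicle 1-1 (0.0498) or male vehicle 1-3 (0.0471), in a range of 0.0434 to 0.201. Fndc5 was at -0.04 ± 0.15 with vehicle, and Bdnf at -0.42 ± 0.40. The 2 sex comparisons use the same libraries as the tumour comparisons. Of 9 Schwann cell markers 8 were lower in males with vehicle and 9 with LLC1, beside 2.95% and 6.07% of all genes. Of 9 adipocyte markers 2 and 3 were lower. The adipocyte sum was 2418 to 3997 CPM in male vehicle against 3624 to 4876 CPM in female vehicle libraries. Their part in the sex differences of Il15 and Vegfa was not tested.

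The tumour difference in males minus that in females passed for 0 of the 6 factors by edgeR, DESeq2 or limma-voom, and 1, Apln, had an unadjusted p below 0.05. Of all genes 0 (0%) passed by edgeR, 57 by DESeq2, and 2191 had an unadjusted p below 0.05. The differences in Il15, Fndc5 and Apln between the sexes are thus given side by side, not as differing.

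Among the factors, some varied together from library to library within the groups. After the mean of each group was taken off, Pearson's r of log2 CPM over the 24 libraries was 0.76 for Ostn and Il15, 0.74 for Vegfa and Bdnf, 0.64 for Il15 and Fndc5 and 0.61 for Metrnl and Fndc5. It was 0.49 for Ostn and Fndc5 and close to 0 for Ostn and Apln. Of the 21 pairs, 8 were at 0.5 or more. Single groups weighed heavily in some pairs. The deviations of Ostn and Il15 were widest in male LLC1 muscle, from -1.23 to 0.92 and from -0.64 to 0.70 (log2 CPM). Those of Bdnf were widest in male vehicle muscle, from -1.74 to 1.29, where it had 2 to 33 reads. No r was computed in each group alone. The r values describe libraries that share a lane within each group and 1 scaling, and carry no test. Tissue markers varied within groups, with erythroid sums of 1243 to 20117 CPM and tendon sums of 73.3 to 856 CPM in female LLC1 muscle, and their part in these values was not tested. In male LLC1 muscle, library 1-5 was the lowest of its group for Ostn, Il15, Fndc5 and Metrnl and the highest for Vegfa. Female LLC1 2-3 was the lowest of its group for 5 of the 7 genes, all but Ostn and Bdnf, and female vehicle 1-4 was the lowest for 5.

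**Figure D5:**
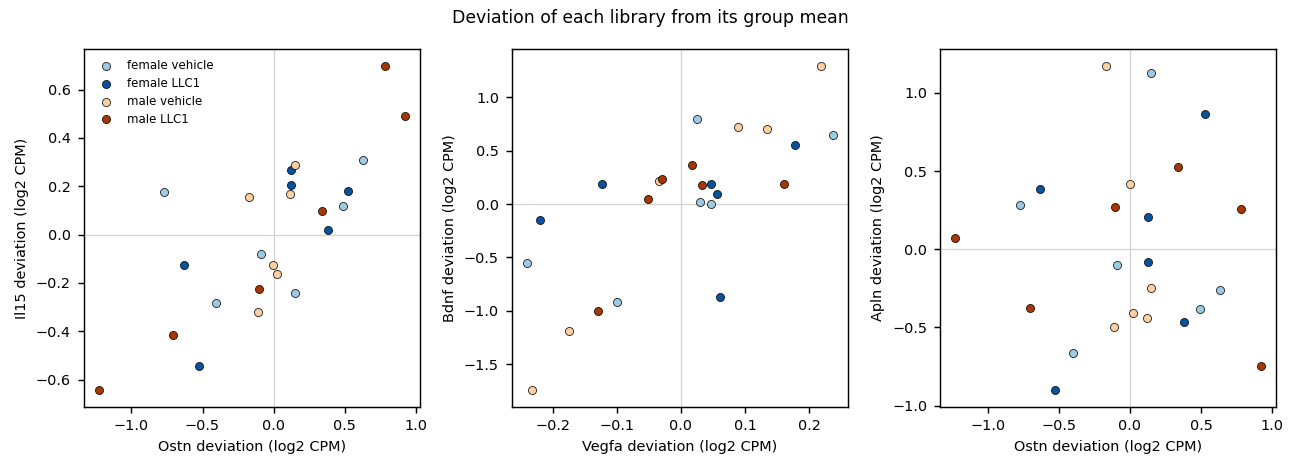
Deviation of each of the 24 libraries from its group mean, in log2 CPM, for Ostn and Il15, Vegfa and Bdnf, and Ostn and Apln; colours mark the 4 groups. The first 2 pairs slope upward (r of 0.76 and 0.74) and the third shows no slope. Ostn and Il15 deviate most widely in male LLC1 libraries, and Bdnf in male vehicle libraries.

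Genes whose level was most like that of Ostn over all 24 libraries included muscle metabolic genes. The highest r was 0.94 for Slc25a11, the mitochondrial oxoglutarate carrier, followed by Itm2a (0.93), Foxo6os (0.93), Tspan3 (0.93), Gamt, an enzyme of creatine synthesis (0.92), and Adk, adenosine kinase (0.92). The lowest r was -0.95 for Tgm2, a transglutaminase, and for Gaa, the lysosomal glucosidase, with Gm20412 at -0.95 and Ece1, a peptidase that activates endothelin, at -0.93. Gm20412 lies wholly within exons of Tgm2 on the other strand, so the reads of that pair cannot be told apart. Much of this likeness follows the 4 groups, and Ostn was chosen for such a pattern.

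With the group means taken off, the genes most like Ostn were Fsd1l (r = 0.86), Apobec2, a deaminase family gene of muscle (0.84), Foxo6os (0.84), 2310016D23Rik (0.83), Qrsl1 (0.82) and Smco1 (0.81). Foxo6os, named as an opposite-strand gene of Foxo6, was in both lists. With ranks in place of values, 3 of the 6 over all libraries and 2 of the 6 less group means were the same genes. For the other factors, the first 3 were Oxct1 (0.86), 2310065F04Rik (0.85) and 2310016D23Rik (0.85) for Il15, and Ldhb (0.90), Wfs1 (0.90) and Bdh1 (0.89) for Fndc5. Oxct1 and Bdh1 encode enzymes of ketone body use, and Ldhb the heart-type lactate dehydrogenase. They were Uap1l1 (0.84), Fabp5 (0.81) and the endothelial receptor gene Acvrl1 (0.80) for Apln, and Ttc7 (0.85), Inpp5j (0.84) and Adcy7 (0.83) for Metrnl. For Vegfa they were As3mt (0.75), BC048679 (0.71) and Hadh (0.68), and for Bdnf Hoxb3 (0.83), Pcgf2 (0.81) and Gm15609 (0.76). All of these were picked as the highest of 14209 genes compared over 24 libraries. How high an r such a choice gives among unrelated genes was not tested, so shared control is not read from these lists. A gene on the other strand covers 52.9% of the exon length of Hoxb3, 13.7% of that of Bdh1, 12.6% of Oxct1, 9.16% of Gm15609, 8.92% of Slc25a11 and 7.88% of Inpp5j, so reads of these genes and their partners cannot be told apart there. The partner of Gm15609, Shank3, held 21964 reads against 2366 for Gm15609.

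Other factors that muscle is known to secrete were tested as a further list. Of 32 tested, 3 fell and 0 rose in females, beside 4.95% and 4.97% of all genes, and 10 fell and 3 rose in males, beside 16.8% and 19.5%. Without female LLC1 2-5 or male LLC1 2-1, 1 rose in females. The list had medians of -0.13 and -0.19. Over both sexes the first 6 by size were Inhbb, the activin B subunit (1.44 ± 0.27, adjusted p = 2.37e-04), Lif, leukaemia inhibitory factor (-1.21 ± 0.25, adjusted p = 5.95e-04), Bmp7 (-1.02 ± 0.15, adjusted p = 1.74e-05), Fstl1, a follistatin-like glycoprotein (-0.94 ± 0.17, adjusted p = 1.63e-04), Ptn, pleiotrophin (-0.89 ± 0.19, adjusted p = 7.26e-04), and Sparc, osteonectin (-0.74 ± 0.16, adjusted p = 0.00116). Inhbb ran from 0.561 to 1.62 CPM in male vehicle and from 1.79 to 10.4 in male LLC1 muscle. These groups did not overlap, as for 4.96% of all genes in that direction. Gdf15, Fgf21 and Il6 were below the filter, with at most 7 reads in a library. Sparc, Fstl1 and Ptn are also made by connective tissue cells, whose progenitor markers fell as given above, and that part was not tested.

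Markers of the remaining cell types were as follows. Beside them, 19.5% of all genes rose and 16.8% fell in males, and 4.97% and 4.95% in females. Of 13 tested macrophage and monocyte markers, 3 rose in males and 0 in females by edgeR (3 at an unadjusted p below 0.05, 2 by DESeq2, 0 by limma-voom). Of 9 tendon cell markers 5 fell in males, and of 10 markers of smooth muscle cells and pericytes 5 fell in males. Of 7 markers of lung epithelium or carcinoma 3 were tested and 0 passed with LLC1 in either sex by any of the 3 tools, with 0 at an unadjusted p below 0.05. Their sum was 0.643 to 3.68 CPM over all libraries, and 2 of the 7 were at 0 in every group.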

How the data were processed

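Poly(A) RNA libraries were made with an unstranded kit and 12 PCR cycles, per the labels' protocols. Per the submitters' processing notes, which name them without a role, CASAVA, STAR, featureCounts and mm10 were used; their versions were not stated there. The authors deposited 1 table of raw read counts per gene, with no normalization, for 24 libraries and 43346 genes. Mitochondrially encoded genes held 0 counts.

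From these counts, edgeR 4.0.16 (R 4.3.3) fitted 4 group means after TMM scaling and filterByExpr (minimum count 10, 17773 genes kept), with the quasi-likelihood F-test and Benjamini-Hochberg adjustment over all kept genes at 0.05. The SE was the size of the log2 difference over the square root of F. CPM used TMM-scaled library sizes, RPKM divided CPM by exon length, and likeness was Pearson's r of log2 CPM with a prior count of 2 over genes with a mean CPM of at least 1. Ostn was described without a test. Beyond the 7 genes, the text names the genes of the pathway lists, the 6 largest passing differences of longer lists and the genes of highest r. The members and lists were chosen with earlier results of these data known. Alternatives were DESeq2 1.42.0, limma-voom 3.58.1, total-count scaling, no filter, each sex alone, replicate blocks and leaving out each library. The tests were checked on simulated data. Full title numbers did not pair the libraries.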

Additional observations from a re-analysis of the deposited data

Results flagged for a closer look

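Among the 28 groups of 6 libraries examined for the 7 genes, 2 held a library apart from the rest, with a gap to its nearest neighbour, over the group's range, above Dixon's 95% criterion. Apln in female vehicle 1-1 stood at 2.54 CPM, above the rest of its group, with a ratio that equals the criterion to 3 digits and so is borderline, and it is the library without which the female Apln difference went from -1.14 to -0.77 (log2; adjusted p = 0.144). Bdnf in male LLC1 1-4 stood at 0.320 CPM, below the rest of its group, with a ratio of 0.681. Chance alone marks about 1 in 20 groups in this way.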

How the results depend on the processing

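In females, where 1 of the 6 tested factors passed, 3 passed with DESeq2, 2 with limma-voom, 3 with the sex fitted alone, and 0 with total counts only or without the filter; leaving out 1 library gave 0 to 2. Leaving out 1 library gave 3 in every case in males, 3 to 5 over both sexes, 1 to 2 for sex with vehicle and 1 to 3 for sex with LLC1. For all genes it gave 919 to 2283 in females, 4984 to 7154 in males, 6675 to 7882 over both sexes, 0 to 7 for the difference between the sexes' responses, 659 to 1476 for sex with vehicle and 1606 to 3724 for sex with LLC1. That difference between responses passed for 57 genes with DESeq2 and 1 with total counts only. The log2 difference of Ostn stayed between -1.71 and -1.44 in females and between -1.53 and -1.15 in males on leaving out 1 library.

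Libraries with the same full number did not deviate together (r from -0.17 to 0.06 over 6 pairs, 0 of 6 best with their own number). For the first number alone, mean r with the other group of the sex was 0.0613 where it was shared and -0.0546 where it was not. The labels do not say what the numbers mean. A block on the full title number compares only same-numbered libraries. For LLC1 within a sex, each sex was fitted alone with the block, and there were just those 6 pairs. The other comparisons took all 24 libraries, where the block also tied female to male libraries of the same number. A pass lost with this block cannot be told apart from the loss of information that it brings. With the full title number as a replicate block, 0 factors passed in females and 0 for sex with vehicle. Over all genes 1361 passed in males, 3526 over both sexes and 269 for sex with vehicle with this block. This block took the Bdnf difference over both sexes from 0.73 to 0.40 (adjusted p = 0.255) and that of Apln in females from -1.14 to -0.43 (adjusted p = 0.541). With the first title number as a replicate block, Bdnf was at 0.59 (adjusted p = 0.0741) and Apln in females at -1.01 (adjusted p = 0.0521), 0 factors passed in females, and 6 genes passed for the difference between the sexes' responses.

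Of 1160 recomputed member results, 1113 kept direction and side of the threshold, 25 lost and 15 gained a pass, and 7 changed sign, none of which had passed; the cause was not tested. Vegfa in females was 0.0091 without female LLC1 2-3 and 0.0205 without female vehicle 2-3 (-0.0853 to 0.0205 on leaving out 1 library). Bdnf between the sexes' responses was 0.0098 without male vehicle 1-3 (-0.5148 to 0.0098). Fndc5 for sex with vehicle was 0.1168 with the full replicate block, 0.0126 without female vehicle 2-3 and 0.0688 without male vehicle 1-2 (-0.1136 to 0.0688), and Apln was -0.2024 without male vehicle 1-3 (-0.2024 to 0.4935). Of 119 pathway gene differences, 44 passed throughout, 48 were lost only with the full replicate block, 24 without at least 1 library and 3 in another setting. Apln and Bdnf held as few as 4 and 2 reads in a library; the part of depth in their changing calls was not tested.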
